A study of Mus musculus with 4 samples.

Results

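The 4 mammalian Notch receptors and the enzymes that add and extend O-linked fucose on them were examined in neurospheres of mice carrying a mutated Dll1, the gene of a Notch ligand. The genes are Notch1, Notch2, Notch3 and Notch4, Pofut1, and the fringe genes Lfng, Mfng and Rfng. They were taken as every non-control probe that the array files name for one of these 8 symbols, which gave 13 probes of 41174. All 13 passed the filter on dim probes, which kept 34447 probes of 23108 genes. Where a gene had several probes, the one of highest mean intensity stood for it, and the others are given beside it. Notch3, Notch4, Mfng and Rfng had 1 probe each, so no other probe checks their values.

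Neurospheres are floating aggregates of neural stem cells and their progeny. Those studied here came from mice of strain 129/Sv crossed with C57BL/6 and were kept without serum in medium with EGF. The 3 groups were Dll1-5 mutant cells, Dll1-3 mutant cells and wild-type cells, and the labels give wild-type cells for each mutant line. Each line had 2 Agilent arrays of 2 colours, with the mutant sample labelled with Cy5 and wild type with Cy3 in replicate 1 and the dyes swapped in replicate 2, and each RNA was a pool of 3 preparations. The labels do not say which part of Dll1 is altered in either line or how the alleles differ, nor whether both arrays of a line were hybridised with the same RNA. P-values therefore measure only the spread between these samples, which may be technical, and do not cover the variation of the wild-type cells.

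Notch receptors are single-pass membrane proteins that are cleaved after a neighbouring cell presents a ligand such as Dll1, and the freed intracellular domain acts in the nucleus with the DNA-binding protein RBPJ. Pofut1 attaches fucose to EGF-like repeats of the receptor, and Lunatic, Manic and Radical fringe (Lfng, Mfng and Rfng) lengthen that fucose with N-acetylglucosamine, which alters how well the receptor responds to Delta and Jagged ligands. In the developing brain Notch1 is known for holding neural stem cells in an undifferentiated state, while Notch3 is best known from mural cells of vessels and Notch4 from endothelium.

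In the mutant cells Notch3 was about 2-fold below wild type in both lines, Notch4 was 5.96-fold above wild type in Dll1-5 and 1.50-fold above it in Dll1-3, Pofut1 was above wild type and Notch1 and Mfng below it on all 4 arrays, and Notch2, Lfng and Rfng lay close to wild type. These readings are of the probe that stood for each gene, and a dimmer Pofut1 probe did not keep 1 sign. With the line as the replicate (limma on the 2 line means against 0, Benjamini-Hochberg adjustment), 0 of the 8 genes had an adjusted p under 0.05, and 0% of all 23106 genes tested did. At an unadjusted p under 0.05 the same limma fit gave 2 of the 8, Notch3 lower and Pofut1 higher, where 27.5% of all genes tested passed.

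Promoters were read from RefSeq's table of the build GRCm38.p6, in which 7 of the 8 genes had an entry. Mfng had none. The 250 bases before the annotated start are shown, 5′ to 3′ on the gene's own strand, for Notch3 and Notch4, whose ratios lay furthest from 1 among the 8 genes, and for Lfng, the one gene of the 7 that held the RBPJ motif GTGGGAA. Capitals mark that motif.

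Notch3, chr17:32166891-32167140, minus strand: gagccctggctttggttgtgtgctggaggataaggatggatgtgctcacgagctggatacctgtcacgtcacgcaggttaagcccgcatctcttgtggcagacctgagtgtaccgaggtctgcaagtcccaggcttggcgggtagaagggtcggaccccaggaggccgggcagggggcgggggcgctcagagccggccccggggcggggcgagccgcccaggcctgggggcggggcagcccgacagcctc

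Notch4, chr17:34564045-34564294, plus strand: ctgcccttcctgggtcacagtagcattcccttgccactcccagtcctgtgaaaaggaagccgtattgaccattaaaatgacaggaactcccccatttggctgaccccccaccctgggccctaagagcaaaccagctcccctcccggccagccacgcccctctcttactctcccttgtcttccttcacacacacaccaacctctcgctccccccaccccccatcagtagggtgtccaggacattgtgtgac

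Lfng, chr5:140607091-140607340, plus strand: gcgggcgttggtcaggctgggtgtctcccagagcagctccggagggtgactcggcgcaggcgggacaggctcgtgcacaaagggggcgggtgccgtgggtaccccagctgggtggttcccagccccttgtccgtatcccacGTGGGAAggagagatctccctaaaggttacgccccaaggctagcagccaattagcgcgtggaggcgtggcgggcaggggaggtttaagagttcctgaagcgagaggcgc

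Both strands were searched for GTGGGAA, and 1 of the 7 promoters held it. The match in Lfng lies on the gene's strand and begins 109 bases before the start. Of all 32851 promoter windows of the same length, 5.42% held the motif on either strand. The match is a run of letters and not a measured binding site, and its absence elsewhere covers only these 250 bases.

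Intensities below are background-corrected and normalised within and between arrays, in arbitrary units that include an added offset of 50. They are comparable between samples for 1 probe but not between probes. Each of the 13 probes was a single spot, was well above background in all 4 mutant and all 4 wild-type channels, and was saturated in none. The negative control spots, 314 per array, had medians of 58.2 to 62.4 over the 8 channels. In pooled RNA, fewer cells of a type and less RNA per cell cannot be told apart.

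Notch1, the receptor best known in neural stem cells, had an intensity of 1207 and 1292 in Dll1-5 cells, against 1858 and 1893 in wild-type cells on the same arrays. In Dll1-3 cells it had 1443 and 1706, against 1905 and 1838 in wild type. All 4 mutant values lay below all 4 wild-type values, and the Dll1-5 values lay below the Dll1-3 values. The log2 ratio of mutant over wild type was -0.62 and -0.55 in Dll1-5 and -0.40 and -0.11 in Dll1-3, with a mean over lines of -0.42 ± 0.24 (SD, n = 2 lines; limma adjusted p = 0.193). A further Notch1 probe, which abuts the first on chromosome 2, gave -0.66 and -0.43 in Dll1-5 and -0.30 and -0.05 in Dll1-3. It repeated the order of the arrays, but the pair covers nearly one stretch of the transcript.

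For Notch2, a receptor also expressed in neural progenitors, the intensity was 727 and 662 in Dll1-5 cells, against 823 and 795 in wild-type cells. It was 824 and 775 in Dll1-3 cells, against 853 and 828 in wild-type cells. The mean log2 ratio was -0.15 ± 0.11 (SD, n = 2 lines; limma adjusted p = 0.418), below 0 on all 4 arrays but small. The other Notch2 probes, with intensities of 99.83 to 157.8 in all channels, did not share a direction. One gave 0.12 and -0.01 in Dll1-5 and -0.20 and -0.14 in Dll1-3, and the other gave -0.13 and -0.19 in Dll1-5 and 0.26 and 0.15 in Dll1-3.

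Notch3 was the lowest of the 8 genes relative to wild type. Its intensity was 574.8 and 505.2 in Dll1-5 cells, against 1031 and 1027 in wild-type cells, and it was 539.3 and 480.1 in Dll1-3 cells, against 1009 and 1109 in wild-type cells. The mutant values ranged from 480.1 to 574.8 and the wild-type values from 1009 to 1109, without overlap, and the lines overlapped with each other. The log2 ratio was -0.84 and -1.02 in Dll1-5, which is 1.91-fold lower than wild type, and -0.90 and -1.21 in Dll1-3, which is 2.08-fold lower. Its mean over lines was -0.99 ± 0.09 (SD, n = 2), with a limma adjusted p of 0.0755, the smallest value in this fit over 23106 genes, which other genes shared. Of all genes, 5.26% had a lower mean over both lines. Leaving out 1 array of the 4 gave limma adjusted p-values of 0.0459 without Dll1-5 replicate 2 and 0.0422 without Dll1-3 replicate 1, fits that called 7.15% and 7.28% of all genes. The adjusted p was 0.0622 without Dll1-5 replicate 1 and 0.0711 without Dll1-3 replicate 2 in the same limma fit, and over all alternatives it ranged from 0.000766 to 0.107.

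Notch4 had the highest ratio of the 8 genes and differed most between the lines. Its intensity was 1119 and 1048 in Dll1-5 cells, against 180.9 and 182.3 in wild-type cells on the same arrays. In Dll1-3 cells it was 259.7 and 188.4, against 174.8 and 125 in wild-type cells. The Dll1-5 values stood far above every other value, while the Dll1-3 values began just above the highest wild-type value, and each Dll1-3 value exceeded the wild-type value of its own array. The log2 ratio was 2.63 and 2.52 in Dll1-5 and 0.57 and 0.59 in Dll1-3. Over both lines it averaged 1.58 ± 1.41 (SD, n = 2 lines; limma adjusted p = 0.264), so the SD between lines was nearly as large as the mean.

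**Figure D1:**
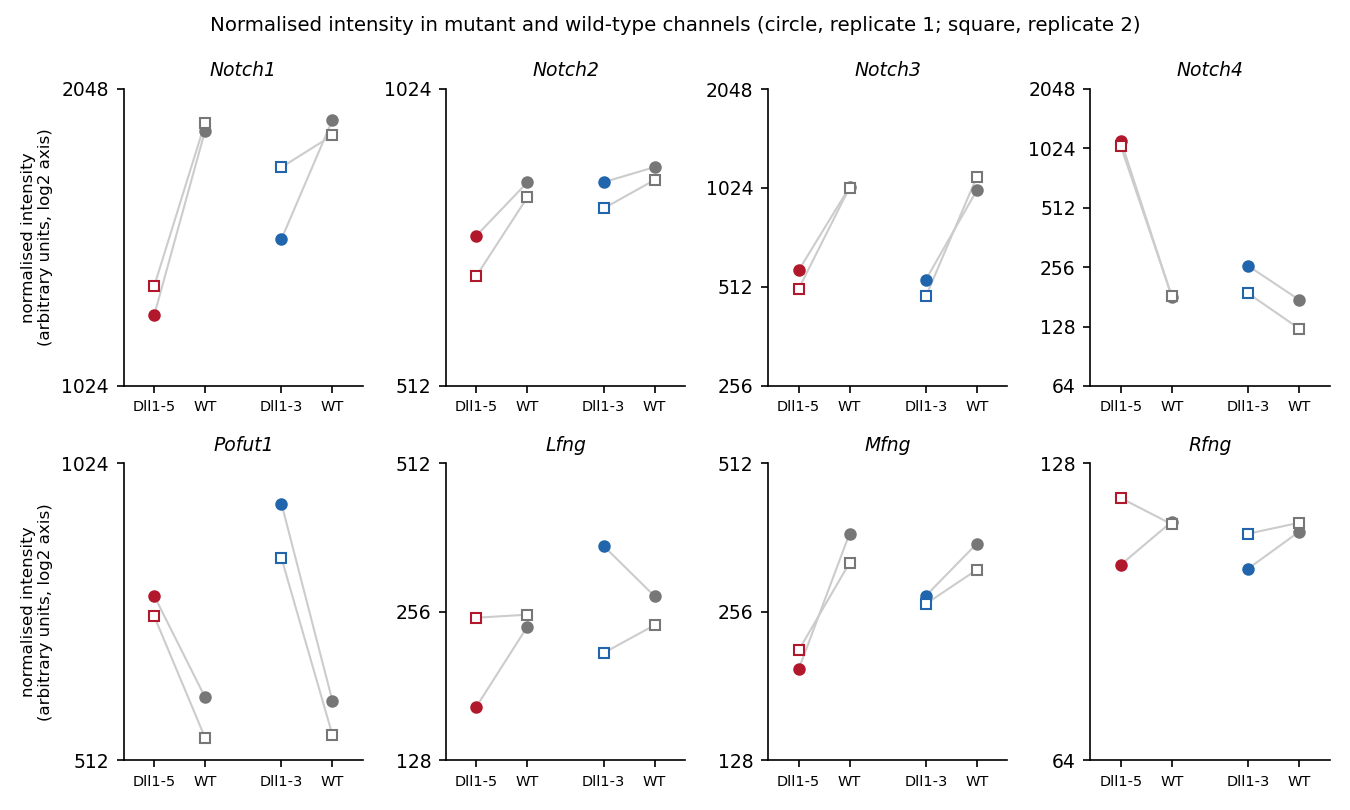
Normalised intensity (arbitrary units, log2 axis; each gene has its own axis range) of the 8 genes in mutant channels (red, Dll1-5; blue, Dll1-3) and wild-type channels (grey), with a line joining the channels of 1 array and circles and squares for replicates 1 and 2. The Dll1-5 values of Notch4, 1119 and 1048, stand apart from 6 other values of at most 259.7, and the 4 mutant values of Notch3 lie at 480.1 to 574.8 where wild type lies at 1009 to 1109.

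The difference between the lines for Notch4, Dll1-5 minus Dll1-3, was 1.99 on the log2 scale, a 3.98-fold ratio of ratios. With the 4 arrays taken as samples, so that the spread is that between dye-swapped arrays, limma gave this difference an adjusted p of 0.00118, and it gave 0.000987 with the dye orientation as a block. The first of these fits called 18.3% of 22914 genes and the second 39.8%, so the call by itself was common, whereas only 0.476% of genes had a larger absolute difference. Notch4 ranked 39 of 22914 by its ratio in Dll1-5 and 71 by the difference of Dll1-5 over Dll1-3. It was the one gene of the 8 at least 2-fold higher on both arrays of Dll1-5, which 3.02% of all genes were. At least 2-fold lower on both Dll1-5 arrays were 0 of the 8, where 3.69% of all genes were, and 0 of the 8 were 2-fold from wild type on all 4 arrays, where 1.69% of all genes were higher and 2.75% lower. In Dll1-3, 0 of the 8 genes were at least 2-fold higher on both arrays, where 4.46% of all genes were, and 0 of the 8 were at least 2-fold lower, where 6.08% were.

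Pofut1, the O-fucosyltransferase that acts before the fringe enzymes, had an intensity of 752 and 717 in Dll1-5 cells, against 593 and 539.5 in wild-type cells. In Dll1-3 cells it had 932 and 820.5, against 588 and 543 in wild-type cells. All 4 mutant values lay above all 4 wild-type values, and the Dll1-3 values lay above the Dll1-5 values. The log2 ratio was 0.34 and 0.41 in Dll1-5 and 0.66 and 0.60 in Dll1-3, and averaged 0.50 ± 0.18 (SD, n = 2 lines; limma adjusted p = 0.13). A dimmer Pofut1 probe, which lies further along the chromosome and was designed to another transcript record, gave 0.23 and -0.21 in Dll1-5 and 0.82 and 0.76 in Dll1-3. On that probe the Dll1-5 arrays fell on both sides of 0, so both probes were above wild type on both arrays in Dll1-3 but not in Dll1-5. For that probe limma with the arrays as samples gave the difference between lines, -0.78, an adjusted p of 0.0297.

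Lfng, which encodes Lunatic fringe and is itself a Notch target in the segmenting mouse embryo, did not hold a direction. Its intensity was 164 and 249 in Dll1-5 cells, against 239 and 253 in wild-type cells, and it was 348 and 211 in Dll1-3 cells, against 275 and 241 in wild-type cells. The log2 ratios were -0.54 and -0.02 in Dll1-5 and 0.34 and -0.19 in Dll1-3, so the dye-swapped arrays of each line lay further apart than the line means. Lfng averaged -0.10 ± 0.25 over the lines (SD, n = 2; limma adjusted p = 0.703). The dimmer Lfng probe gave -0.06 and -0.12 in Dll1-5 and 0.09 and 0.00 in Dll1-3.

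Mfng, the gene of Manic fringe, was lower in mutant cells on every array. Its intensity was 196 and 214 in Dll1-5 cells, against 369 and 322 in wild-type cells, and it was 276 and 266 in Dll1-3 cells, against 352 and 312 in wild-type cells. The mutant and wild-type ranges did not overlap, and the Dll1-5 values were the lowest. The log2 ratio was -0.92 and -0.59 in Dll1-5, 1.69-fold lower than wild type, and -0.35 and -0.23 in Dll1-3, 1.22-fold lower, with a mean of -0.52 ± 0.33 (SD, n = 2 lines; limma adjusted p = 0.198). Rfng, the gene of Radical fringe, had 101 and 118 in Dll1-5 cells, against 112 and 111 in wild type, and 100.1 and 109 in Dll1-3 cells, against 109 and 111 in wild type. Its mean log2 ratio was -0.05 ± 0.04 (SD, n = 2 lines; limma adjusted p = 0.728), and its mutant values lay on both sides of the wild-type values.

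**Figure D2:**
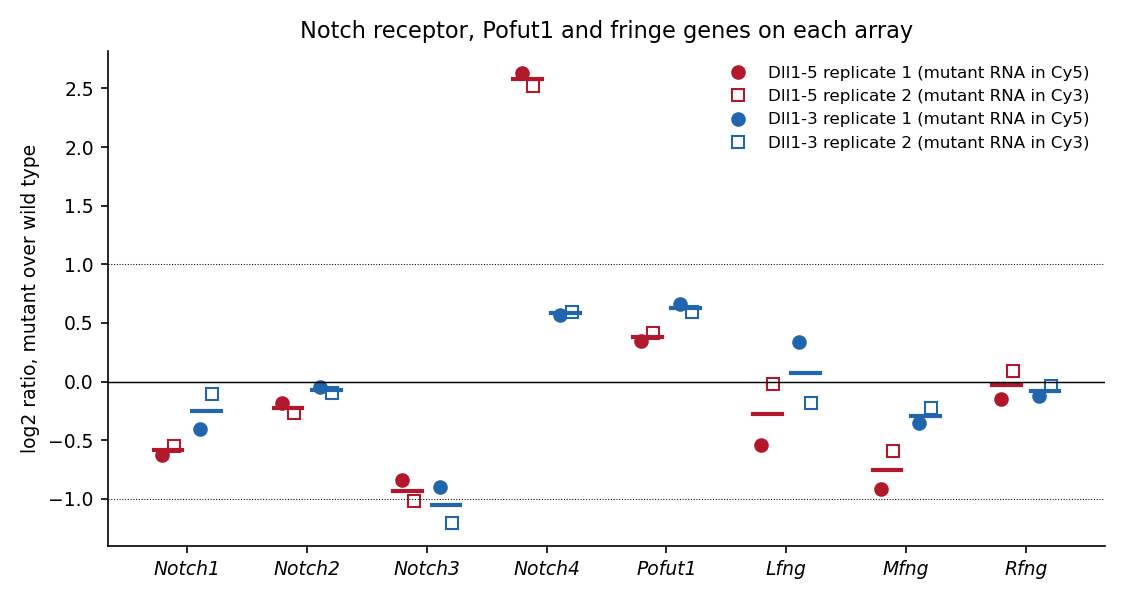
Log2 ratio of mutant over wild type for the 8 genes on each of the 4 arrays (red, Dll1-5; blue, Dll1-3; filled circle, replicate 1; open square, replicate 2), with a bar at each line's mean and dotted lines at 2-fold. Notch4 is past 2-fold on both Dll1-5 arrays (2.63 and 2.52), and Notch3 lies between -0.84 and -1.21 on all 4 arrays.

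Notch1, Notch2, Notch3 and Mfng were below wild type on all 4 arrays, 4 of 8 genes where 26% of all genes were. Notch4 and Pofut1 were above it on all 4, 2 of 8 genes where 24.1% of all genes were. Together 6 of 8 kept 1 sign on all 4 arrays, where 50.1% of all genes did. These counts use the probe that stood for each gene, and the other Notch2 probes and the dimmer Pofut1 probe did not keep 1 sign. The median of the 8 log2 ratios over both lines was -0.13, beside 0.01 over all genes. In Dll1-5 it was -0.25 and in Dll1-3 it was -0.08, beside medians of 0.00 over all genes in both lines. For 5 of the 8 genes (Notch1, Notch2, Notch4, Pofut1 and Mfng) both arrays of one line lay above both of the other, which held for 53.3% of all genes. Where the line means also had to be at least 2-fold apart, 1 of the 8 was higher in Dll1-5, Notch4, against 2.76% of all genes, and 0 were lower in Dll1-5, against 1.66%. Taking the 4 arrays as samples against 0, limma called 5 of the 8 (Notch1, Notch3, Notch4, Pofut1 and Mfng), where it called 33.7% of all genes. With the dye orientation as a block the same fit called 2 of the 8 (Notch3 and Pofut1), where it called 29.2% of all genes, and Notch1, Notch4 and Mfng were not called. With only 8 genes, these shares were not tested against those of all genes.

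**Figure D3:**
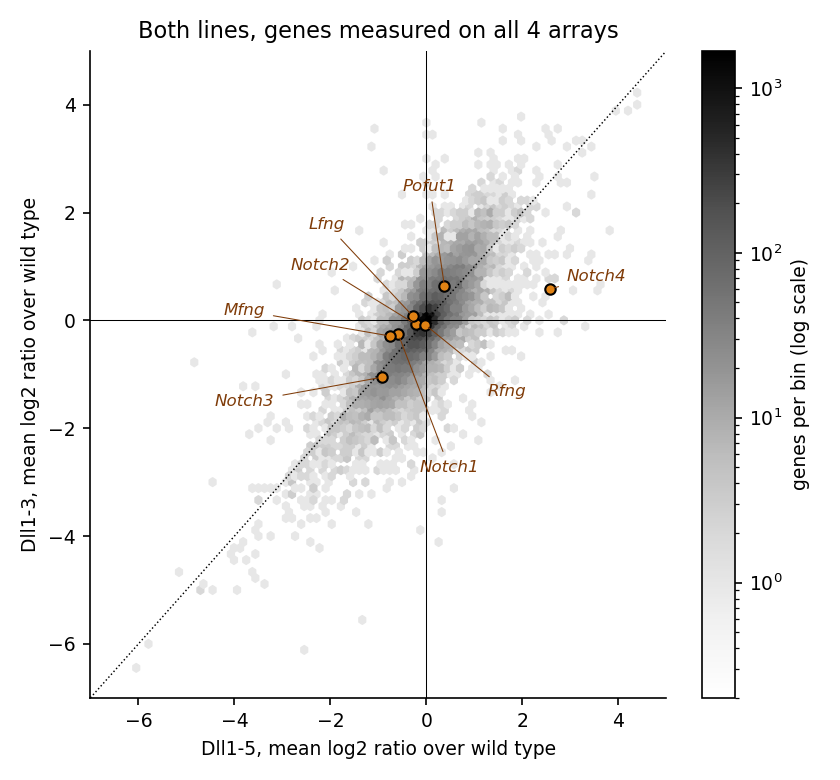
Mean log2 ratio over wild type in Dll1-5 (horizontal) and Dll1-3 (vertical) for 22914 genes, as grey bins shaded by gene number on a log scale, with the 8 genes as orange points and a dotted line where the lines are equal. Notch4, at 2.58 and 0.58, lies far to the right of the diagonal, Notch3, at -0.93 and -1.06, lies close to it, and the others lie in the dense centre.

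**Figure D4:**
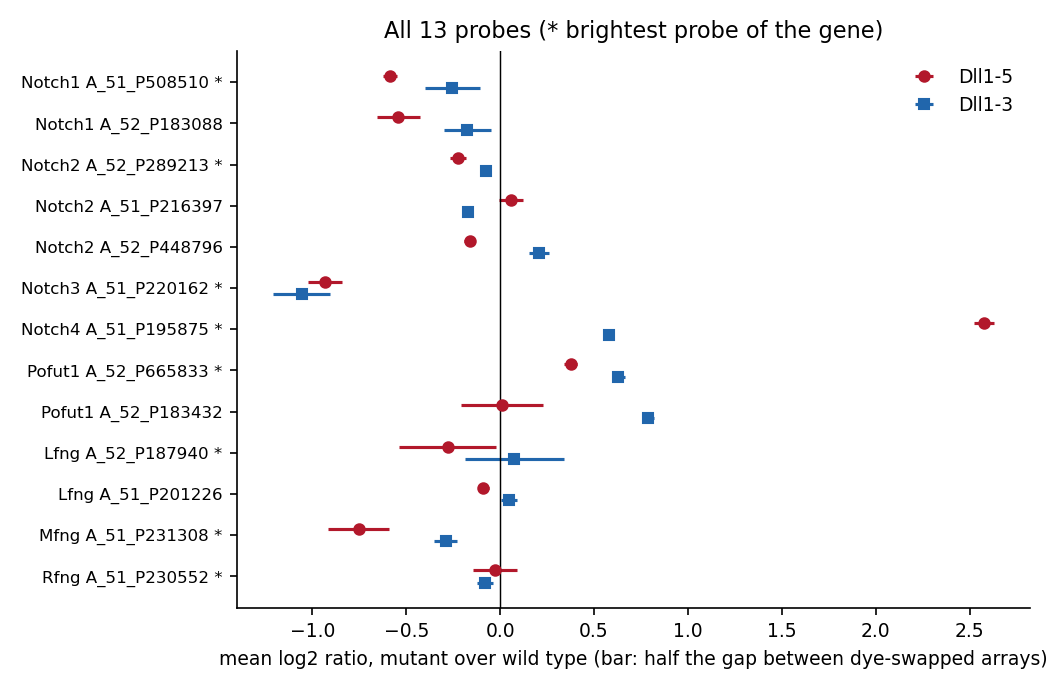
Mean log2 ratio over wild type for each of the 13 probes in Dll1-5 (red circles) and Dll1-3 (blue squares), with bars of ± the distance from the line's mean to its dye-swapped arrays and a star at the probe that stands for the gene. The Notch1 probes share their direction, while the unstarred Notch2 probes lie on opposite sides of 0 in each line, and the unstarred Pofut1 probe lies at 0.01 in Dll1-5 where the starred one lies at 0.38.

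The probe positions in the array files, for which the sources used here name no genome build, place Notch3 at chr17:29928836-29928895 on the minus strand and Notch4 at chr17:32287055-32287114 on the plus strand. These lie 16.6 and 18.9 megabases from the Dll1 probe on the same chromosome. The other probes that stood for their genes lie at chr2:26391415-26391473 (Notch1), chr3:97636201-97636260 (Notch2), chr2:152724062-152724121 (Pofut1), chr5:139614103-139614162 (Lfng), chr15:78807409-78807468 (Mfng) and chr11:120603577-120603636 (Rfng). Which exon each probe covers was not determined here. At least 2-fold from wild type on both arrays were 3.02% of all genes (higher) and 3.69% (lower) in Dll1-5, and 4.46% and 6.08% in Dll1-3. Of 10 other measured genes within 250 kilobases of the Notch3 probe, 0 were at least 2-fold from wild type on both arrays of either line. Of 18 within 250 kilobases of the Notch4 probe, 1 was in Dll1-5 and 0 were in Dll1-3.

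That 1 gene was Gpsm3, which encodes a modulator of G-protein signalling and was singled out after its values were seen. Its probe lies 3.6 kilobases beyond the Notch4 probe on the same strand. Its intensity was 208.3 and 160.1 in Dll1-5 cells, against 92.58 and 68.3 in wild-type cells, and it was 93.46 and 73.6 in Dll1-3 cells, against 70.84 and 63 in wild-type cells. The log2 ratio was 1.17 and 1.23 in Dll1-5 and 0.40 and 0.22 in Dll1-3, so its ratio was higher on both Dll1-5 arrays than on both Dll1-3 arrays, as that of Notch4 was. Its spot was well above background in only 1 of 4 wild-type channels. Over both lines it averaged 0.76 ± 0.63 (SD, n = 2; limma adjusted p = 0.25).

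Of 16467 genes with a RefSeq name, those nearest to Notch3 by Euclidean distance over the 4 array log2 ratios were Ctnnb1 (0.110), Dstyk (0.119) and Anxa5 (0.119), and 327 genes lay within 0.5 of it. Ctnnb1 encodes beta-catenin, Dstyk a protein kinase and Anxa5 a phospholipid-binding annexin. Other Dstyk probes averaged -0.72, -0.09 and -0.07 over both lines, and other Ctnnb1 probes averaged -0.98 and -0.60. Those nearest to Notch4 were Mm2pr (0.304), Invs (0.307) and Amhr2 (0.337), and only 5 genes lay within 0.5. Other Invs probes averaged -0.17 and -0.09 over both lines, so the Invs pattern belongs to 1 probe.

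Because Notch4 is typical of endothelium and Notch3 of mural cells, the markers of both were read on the same arrays. Of 12 endothelial markers, 8 were well above background in every mutant channel and 7 in every wild-type channel, Tie1 was in none, and Pecam1 was in 0 of 4 mutant and 2 of 4 wild-type channels. The list had a median log2 ratio of 0.02 in Dll1-5 and 0.04 in Dll1-3, and 0 of the 12 were at least 2-fold from wild type on both arrays of a line. Of all genes, 3.02% were so higher and 3.69% lower in Dll1-5, and 4.46% higher and 6.08% lower in Dll1-3. The list's summed intensity was 1172 to 1338 in mutant channels and 1171 to 1384 in wild-type channels. Single markers had 52.7 to 197 units, against negative control medians of 58.2 to 62.4, so a large part of each sum is background and offset. The highest log2 ratio was that of Vwf, averaging 0.75 in Dll1-5 and 0.23 in Dll1-3, and the lowest was that of Flt1, averaging -0.85 in both lines. The part of endothelial cells in the Notch4 values was not tested.

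The 9 mural markers had medians of 0.03 in Dll1-5 and -0.04 in Dll1-3. Of the 9, 0 were 2-fold from wild type on both arrays of a line, beside the shares of all genes given with the endothelial list. Cspg4, which pericytes also express, was listed only with the oligodendrocyte lineage and is not among the 9. Its log2 ratio, added after its values were seen, was 2.975 and 3.28 in Dll1-5 and 2.05 and 2.06 in Dll1-3. The summed intensity of the 9 was 7807 to 10340 in mutant channels and 10580 to 11830 in wild-type channels, without overlap. That separation rested on Acta2, the smooth muscle actin gene, which averaged -0.89 in Dll1-5 and -0.74 in Dll1-3. Summed without Acta2, a step chosen after seeing the data, the other 8 gave 4778 to 7497 in mutant channels and 5387 to 6528 in wild-type channels, which overlap. Most of that sum was Tagln, with 4040 to 6743 in mutant channels and 4656 to 5894 in wild-type channels, so the overlap is mainly that of 1 gene. The mural markers other than Acta2, Tagln and Anpep had only 57.05 to 120.2 units, against negative control medians of 58.2 to 62.4. Anpep, an aminopeptidase gene of pericytes, averaged 0.65 in Dll1-5 and 0.12 in Dll1-3. Pdgfrb, a defining mural marker, was well above background in 2 of 4 mutant and 2 of 4 wild-type channels. The part of mural cells in the Notch3 values was not tested.

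Of 10 neural stem cell markers, 9 were well above background in every mutant channel and 10 in every wild-type channel. At least 2-fold lower on both arrays were 5 of the 10 in Dll1-5 and 3 in Dll1-3, where 3.69% and 6.08% of all genes were. The list medians were -0.73 and -0.82, and the summed intensity of the 10 was 62990 to 83940 in mutant channels and 116800 to 131500 in wild-type channels. Among 7 neuron markers, 2 in Dll1-5 and 3 in Dll1-3 were at least 2-fold lower on both arrays, beside the same shares of all genes, with medians of -1.01 and -1.02. Astrocyte markers, 7 in number, had medians of -0.49 in Dll1-5 and -0.88 in Dll1-3, and 8 markers of the oligodendrocyte lineage had medians of -0.03 in Dll1-5 and -0.50 in Dll1-3. The 8 microglial markers had medians of 0.00 in Dll1-5 and -0.01 in Dll1-3, and 0 of them were 2-fold from wild type on both arrays of a line, beside the shares of all genes given with the endothelial list. The part of these lists in the values of the 8 genes was not tested. Hes5 belongs both to the neural stem cell markers and to the direct targets of Notch.

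**Figure D5:**
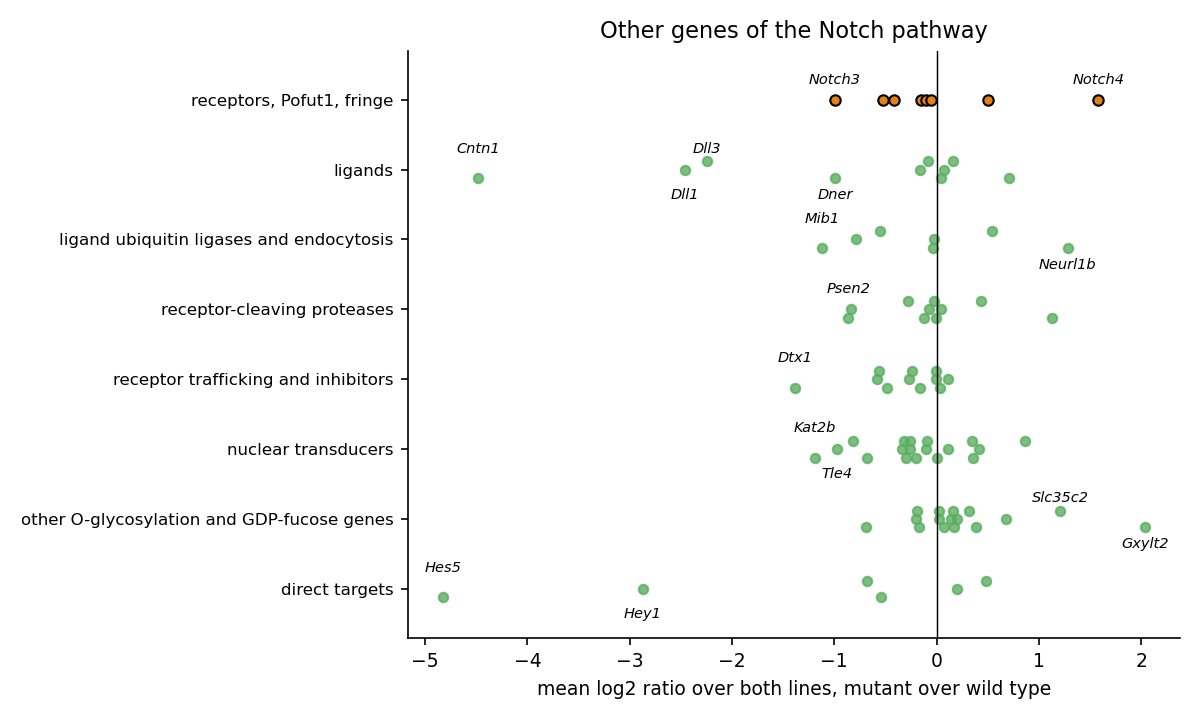
Mean log2 ratio of mutant over wild type over both lines for the 8 genes (orange) and for 78 other Notch pathway genes in 7 lists (green), with points offset vertically only to separate them. Labels mark Notch3, Notch4, Dll1 and the pathway genes chosen by the naming rule given below. The receptor and fucosylation genes span -0.99 to 1.58, while ligands reach -4.48 and direct targets -4.83.

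The rest of the pathway was read from 82 genes in 7 lists, of which 78 were measured. In the limma fit over both lines 0 of the 78 had an adjusted p under 0.05, and at an unadjusted p under 0.05 there were 11 higher and 16 lower, where 12% and 15.5% of all genes were. At least 2-fold lower on both arrays were 6 of the 78 in Dll1-5 and 10 in Dll1-3, where 3.69% and 6.08% of all genes were. At least 2-fold higher were 2 of the 78 in Dll1-5 and 3 in Dll1-3, where 3.02% and 4.46% of all genes were. The median of the 78 over both lines was -0.09.

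Among ligands 10 of 12 were measured, with a median of -0.13. At an unadjusted limma p under 0.05, 1 was higher and 4 lower, beside 12% and 15.5% of all genes. The mutated gene Dll1 had a log2 ratio of -1.65 and -1.64 in Dll1-5, 3.13-fold lower than wild type, and -3.31 and -3.22 in Dll1-3, 9.63-fold lower. Since the altered part of Dll1 is not given, it is not known whether its probe lies within it, and the reading checks the labels only so far. Dll3, a ligand-like protein that acts inside the producing cell, had -1.71 and -1.61 in Dll1-5 and -2.93 and -2.72 in Dll1-3. The non-classical ligand genes Dner and Cntn1 were also lower on all 4 arrays, with means of -0.99 ± 0.27 and -4.48 ± 0.69 (SD, n = 2 lines; limma adjusted p = 0.0879 and 0.0755).

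Of 7 genes for ligand ubiquitination and endocytosis, 1 was higher and 1 lower at an unadjusted limma p under 0.05. The shares of all genes were 12% higher and 15.5% lower. Mib1, the ubiquitin ligase that primes Notch ligands for uptake, had -0.31 and -0.43 in Dll1-5 and -1.87 on both arrays of Dll1-3, but its other probes averaged -0.44 and -0.33 over both lines. Neurl1b, a ligase of the Neuralized family, had 0.70 and 0.71 in Dll1-5 and 1.76 and 1.96 in Dll1-3. Of 10 proteases that cleave the receptor, 2 were higher and 2 lower at the same cutoff, beside the same shares of all genes. The list median was -0.05. Psen2, a catalytic subunit of gamma-secretase, had -0.48 and -0.50 in Dll1-5 and -1.28 and -1.19 in Dll1-3.

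Of 11 measured genes for receptor trafficking and inhibition, 0 were higher and 1 lower at an unadjusted limma p under 0.05. The shares of all genes were 12% higher and 15.5% lower. Dtx1, a Deltex ubiquitin ligase that binds the receptor's intracellular domain, had -2.29 and -2.07 in Dll1-5 and -0.69 and -0.47 in Dll1-3. It was thus further from wild type in Dll1-5, as Notch4 was, whereas Dll1 was further in Dll1-3. Of 18 measured nuclear transducers, 1 was higher and 3 lower at the same cutoff, beside the same shares of all genes. The acetyltransferase gene Kat2b averaged -1.19 ± 0.53 and the co-repressor gene Tle4 -0.97 ± 0.71 (SD, n = 2 lines; limma adjusted p = 0.122 and 0.211), and another Kat2b probe averaged -0.43.

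The 16 other genes of O-glycosylation and GDP-fucose supply had a median of 0.15. At an unadjusted limma p under 0.05, 5 were higher and 1 lower, beside 12% and 15.5% of all genes. Gxylt2, a xylosyltransferase that extends O-linked glucose on Notch, had log2 ratios of 1.44 and 1.51 in Dll1-5 and 2.40 and 2.78 in Dll1-3, with wild type well above background in 3 of 4 channels. Slc35c2, a Golgi transporter-like protein linked to Notch fucosylation, had 0.75 and 0.94 in Dll1-5 and 1.51 and 1.64 in Dll1-3. Both were above wild type on all 4 arrays and higher in Dll1-3, as was the probe that stood for Pofut1. Their limma adjusted p-values over both lines were 0.103 for Gxylt2 and 0.117 for Slc35c2.

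The 6 direct targets, which report on Notch signalling in many tissues, had a median of -0.61. At an unadjusted limma p under 0.05, 1 was higher and 4 lower, beside 12% and 15.5% of all genes. Hes5 averaged -4.83 ± 0.18 and Hey1 averaged -2.87 ± 1.31 (SD, n = 2 lines; limma adjusted p = 0.0755 and 0.119). Hes5 averaged -4.70 in Dll1-5 and -4.95 in Dll1-3, whereas Hey1 had -1.97 and -1.93 in Dll1-5 and -3.93 and -3.66 in Dll1-3. The 1 target that was higher was Hes1, with 0.50 and 0.37 in Dll1-5 and 0.50 and 0.55 in Dll1-3. Heyl was also above wild type on all 4 arrays, averaging 0.20 over both lines (limma adjusted p = 0.335). Nrarp and Hey2 were below wild type on all 4 arrays, averaging -0.54 and -0.68 (limma adjusted p = 0.0869 and 0.0792). Hey2 was well above background in 0 of 4 mutant channels.

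Across genes the dye-swapped arrays of a line correlated with r = 0.909 in Dll1-5 and r = 0.941 in Dll1-3, and arrays of different lines with 0.691 to 0.758, where genes are not independent replicates. Between 80.2% and 82.2% of spots were well above background in each channel. Only 4 arrays limit the precision, and the limma fit over the 2 lines had 1 residual degree of freedom.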

How the data were processed

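The deposited scanner files of the 4 two-colour arrays hold spot intensity values and log10 ratios written by Agilent Feature Extraction 8.1.1.1, per the file headers, with flags for outlier, saturated and above-background spots. The deposited value table of the series holds log10 ratios, which were found to run as wild type over mutant by their correlation of -0.962 to -0.954 with the scanner intensities. Mean signals were background-corrected here by normexp with an offset of 50 and normalised within arrays by loess (span 0.3) in limma 3.58.1 and R 4.3.3. The channel intensities given in the text, but not the main ratios, were then also normalised between arrays by the Aquantile method of limma. Control spots and spots marked as outliers did not enter the averages, and probes were kept where mutant or wild type was well above background. Ratios were turned to mutant over wild type, and a gene was represented by its brightest passing probe. Genes were named by accession or symbol through RefSeq (13750 and 2476), by synonym (1361) or by the files' own name (5521).

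The design text describes pools of 3 and dye swaps, so both arrays of a line were averaged and each line counted as 1 replicate. limma (lmFit, eBayes) tested the 2 line means against 0 over all genes with Benjamini-Hochberg adjustment. The alternatives were other offsets, normalisations, filters, probe summaries, each array left out, and the 4 arrays as samples without or with a block. Code was tested on simulated data.

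The 8 genes, the pathway and marker lists and the tests were chosen with earlier results of these data known. The text names all 8 genes, Dll1, up to 4 genes a pathway list (largest mean over both lines among those of 1 sign on all 4 arrays and at least 2-fold on both arrays of a line) and the 3 genes nearest to Notch3 and to Notch4. Neurl1a and the direct targets Hes1, Heyl, Hey2 and Nrarp were named beyond this rule, after their values were seen.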

Additional observations from a re-analysis of the deposited data

Results flagged for a closer look

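These results differed between the lines in the log2 ratio of mutant over wild type, given as Dll1-5 minus Dll1-3. The test was limma with the dye-swapped arrays counted as samples, adjusted over all genes or all probes, and it measures the difference against the spread between dye-swapped arrays, not between separate cultures. It called 18.3% of 22914 genes.

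Among the 8 genes, the Notch4 probe differed by 1.99 (adjusted p = 0.00117 over all probes). The dimmer Pofut1 probe differed by -0.78 (adjusted p = 0.0297). For 1 dim Notch2 probe both Dll1-5 arrays were below 0 and both Dll1-3 arrays above it, a difference of -0.37 that the limma fit did not call (adjusted p = 0.0718). The dimmer Lfng probe showed the same opposite signs with a difference of -0.14 (adjusted p = 0.493), which the limma fit did not call either.

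Pathway genes were read here only where the naming rule chose them. Among those, the differences that passed included 1.62 for Dll1 (adjusted p = 0.00155), 1.16 for Dll3 (0.00419), 0.97 for Cntn1 (0.00472) and 1.50 for Mib1 (0.00192). Passing too were 0.74 for Psen2 (0.0083), 1.00 for Tle4 (0.0262) and 1.85 for Hey1 (0.00199). All of these were nearer to wild type in Dll1-5. Neurl1b at -1.16 (0.00383), Gxylt2 at -1.11 (0.00874) and Slc35c2 at -0.73 (0.0139) were also nearer to wild type in Dll1-5. Dtx1, at -1.60 (0.00288), was nearer to wild type in Dll1-3. Pathway genes outside the naming rule also passed, in either direction, so the genes listed do not stand for the pathway. Neurl1a differed by 2.135 (0.0011), averaging 1.61 in Dll1-5 and -0.53 in Dll1-3.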

How the results depend on the processing

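The count of genes called over both lines was 0 (27.5% of genes had an unadjusted p under 0.05), but 993 with an offset of 10, 336 with the scanner software's ratios, 1214 with an intensity trend and robust prior, 0 to 1678 with 1 array left out (1678 without Dll1-3 replicate 1, 1645 without Dll1-5 replicate 2), and 7728, 6683 and 6613 with the arrays as 4 samples, with the replicate block and the line as random block. The causes were not tested. Only 2 same-numbered pairs exist, and replicate number is dye orientation, so the numbers were not taken to pair the samples. The difference of replicate 1 and replicate 2 correlated between lines with r = 0.702.

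Among the fits of the arrays as samples, in the order no block, replicate block, random block, the adjusted p of Notch3 at -0.99 was 0.000766, 0.00395 and 0.00171, and that of Pofut1 at 0.50 was 0.00609, 0.0234 and 0.0103. In the same order it was 0.0262, 0.0558 and 0.0461 for Notch1 at -0.42, 0.0259, 0.061 and 0.0392 for Mfng at -0.52, and 0.0396, 0.108 and 0.0353 for Notch4 at 1.58, so the replicate block lost these 3 calls. Over all alternatives the adjusted p ranged from 0.000766 to 0.107 for Notch3, 0.00609 to 0.252 for Pofut1, 0.0262 to 0.528 for Notch1, 0.0259 to 0.251 for Mfng and 0.0353 to 0.313 for Notch4. With the replicate block the difference between lines was called for 4 of the 8 genes (Notch1, Notch4, Pofut1 and Mfng), where 39.8% of all genes were called.

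With 1 array left out, Notch3 ranged from -1.07 to -0.92. Lfng ranged from -0.234 to 0.0292, turning to 0.0292 without Dll1-3 replicate 2 and 0.0273 without Dll1-5 replicate 1, and Rfng from -0.113 to 0.00416, turning without Dll1-5 replicate 1. Without replicate 1 of a line, 1 array of it is left, on which 2 of the 8 genes in Dll1-5 and 1 in Dll1-3 were at least 2-fold from wild type. The added gene was Notch3 in each line, at -1.02 in Dll1-5 and -1.21 in Dll1-3, against -0.84 and -0.90 on the arrays left out. The Notch4 difference between lines, 1.99, was 2.18 with an offset of 10, 2.27 with the scanner software's ratios and 2.28 with the value table.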
